A study of Mus musculus with 2 samples.

Results

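Many mouse genes are annotated with transcription start sites (TSSs) that lie far apart, and 3719 of 21410 protein-coding genes on the autosomes (17.4%) had annotated protein-coding transcripts starting at least 5 kb from each other. For each of these genes the most upstream and the most downstream annotated TSS were taken, which gave 7438 TSSs, and reads were counted within 500 bases of each and from 500 to 2000 bases downstream of each, on the gene's strand. Of the other genes, 11411 had 1 TSS position and 6280 had TSSs less than 5 kb apart. The members were chosen from the annotation of the mm9 genome and from no read count.

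The question was at which end of such genes the MSL and NSL complexes lay, and whether both lay at the same end. Chromatin of wt mouse embryonic stem cells (mESCs; the labels give E14, the name of an mESC line, as the age, a 129P2/OlaHsd background and passage 26) was fixed for 10 min in 1% formaldehyde and sheared to 200 to 500 bp. It was precipitated with the anti-Msl1 antibody 3208 or the anti-Nsl1 antibody 3130, and 10 ng of DNA went into a NEXTFlex library for Msl1 and a NEBNext library for Nsl1. There was 1 library per antibody, so that no test between samples was possible, no p-value is given, and a difference between Msl1 and Nsl1 is a difference between these libraries, whose kits and read lengths also differed. All intervals are exact 95% Poisson or binomial intervals for counting error only, and those of shares of genes treat genes as independent.

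Alternative promoters allow a gene to start transcription at different places, each with its own regulation, and to make transcripts and proteins with different N-terminal ends. Mof is a histone acetyltransferase shared by both complexes. It acetylates histone H4 in the MSL complex, which is assembled on Msl1, while the NSL complex is assembled on Nsl1 and is known for its place at promoters of housekeeping genes. Most mammalian promoters that are active in many tissues lie in CpG islands, where the CG dinucleotide is common, whereas tissue-restricted promoters more often lack it.

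The Msl1 and Nsl1 libraries held 23888517 reads of 50 bases and 26084098 reads of 36 bases. After 1 read was kept per position and strand, 18954995 Msl1 and 24235463 Nsl1 reads were left on the autosomes, and a window within 500 bases of a TSS held 7.67 Msl1 and 9.81 Nsl1 reads at the genome level. Reads were moved to the middle of their fragments, by 106 bases for Msl1 and 66 bases for Nsl1. Counts at 1 TSS were therefore small, and a gene with 20 reads at both TSSs together had a wide interval.

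The 150 bases that end at the TSS are printed 5′ to 3′ from mm9 for 4 genes, with each CG dinucleotide in capitals. They are shown because these genes stood at the ends of the ranges of one-sided enrichment and of enrichment at both TSSs: Plaa, with the largest Nsl1 ratio of upstream to downstream reads, Atp2b4, with the smallest, 2410141K09Rik, with the highest enrichment at both TSSs, and Rbbp6, with the smallest Msl1 ratio. The median number of CG dinucleotides in these 150 bases was 9 at upstream TSSs, 2 at downstream TSSs and 6 at all annotated protein-coding TSSs.
Plaa upstream TSS, chr4:94269935-94270084, minus strand: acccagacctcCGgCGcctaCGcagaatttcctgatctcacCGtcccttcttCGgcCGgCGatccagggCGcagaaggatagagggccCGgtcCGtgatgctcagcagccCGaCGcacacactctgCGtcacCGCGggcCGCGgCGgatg
Plaa downstream TSS, chr4:94250189-94250338, minus strand: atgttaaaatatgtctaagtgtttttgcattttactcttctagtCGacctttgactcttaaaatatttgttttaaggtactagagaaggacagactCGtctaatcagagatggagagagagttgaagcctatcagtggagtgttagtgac
Atp2b4 upstream TSS, chr1:135697618-135697767, minus strand: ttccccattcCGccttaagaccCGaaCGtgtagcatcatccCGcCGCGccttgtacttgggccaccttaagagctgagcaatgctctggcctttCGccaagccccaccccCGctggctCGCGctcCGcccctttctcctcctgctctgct
Atp2b4 downstream TSS, chr1:135649858-135650007, minus strand: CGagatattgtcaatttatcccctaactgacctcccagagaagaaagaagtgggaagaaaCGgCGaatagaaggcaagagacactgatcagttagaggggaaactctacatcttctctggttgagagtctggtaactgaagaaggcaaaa
2410141K09Rik upstream TSS, chr13:66542067-66542216, minus strand: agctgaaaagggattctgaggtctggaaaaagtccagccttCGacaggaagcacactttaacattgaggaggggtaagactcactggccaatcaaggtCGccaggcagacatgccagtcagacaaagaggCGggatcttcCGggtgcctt
2410141K09Rik downstream TSS, chr13:66534831-66534980, minus strand: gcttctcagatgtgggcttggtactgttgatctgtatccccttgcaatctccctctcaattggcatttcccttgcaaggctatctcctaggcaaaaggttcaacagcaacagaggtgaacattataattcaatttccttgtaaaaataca
Rbbp6 upstream TSS, chr7:130109051-130109200, plus strand: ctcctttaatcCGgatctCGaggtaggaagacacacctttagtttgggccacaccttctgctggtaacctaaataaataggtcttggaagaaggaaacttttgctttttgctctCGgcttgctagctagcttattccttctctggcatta
Rbbp6 downstream TSS, chr7:130114283-130114432, plus strand: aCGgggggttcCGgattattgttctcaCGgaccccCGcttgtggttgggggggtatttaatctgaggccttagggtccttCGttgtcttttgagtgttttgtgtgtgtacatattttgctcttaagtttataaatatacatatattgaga
The Plaa sequences held 18 CG dinucleotides upstream and 2 downstream. Those of Atp2b4 held 11 and 3, although most Nsl1 reads of this gene lay at the downstream TSS. The 2410141K09Rik sequences held 4 and 0, and the Rbbp6 sequences 3 and 5. The downstream TSS of Plaa and of Atp2b4 lay in an exon of another transcript of the gene, and that of 2410141K09Rik and Rbbp6 in an intron. The downstream Plaa transcript is marked in the annotation as having an incomplete start.

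The distance between both TSSs ranged from 5001 bases in Lztfl1 on chromosome 9 to 2909662 bases in Fgfr2 on chromosome 7, with a median of 25856 bases and quartiles of 11640 and 68084 bases. The genes had a median of 3 TSS positions, and 1000 of them (26.9%) had exactly 2. The downstream TSS lay in an intron of the gene's other transcripts at 2004 genes (53.9%), in an exon at 1707 (45.9%) and outside them at 8. Its transcript was marked as having an incomplete start in 1180 genes (31.7%), against 31 genes (0.834%) at the upstream TSS, so that many downstream TSSs are not known to be true starts. A TSS of another gene lay within 2 kb of the upstream TSS in 865 genes and of the downstream TSS in 183, and reads there cannot be assigned to 1 of both genes.

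Reads of both Msl1 and Nsl1 were denser at upstream than at downstream TSSs. The median upstream TSS had 22 Msl1 and 22 Nsl1 reads within 500 bases (quartiles 13 and 34 for Msl1, 15 and 36 for Nsl1), which was 2.08 and 1.81 times the local level, the read density from 5 to 50 kb on both sides. The median downstream TSS had 13 Msl1 reads and 14 Nsl1 reads, 1.15 and 1.09 times the local level. Points midway between TSSs at least 10 kb apart, at least 2 kb from any annotated TSS, had 10 and 11 reads, 0.926 and 0.917 times the local level. The median downstream TSS thus lay between the midway points and the upstream TSSs, nearer to the former.

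A TSS was called enriched where the lower end of the 95% interval of its reads over the local level was at least 1.5. Msl1 was enriched at 1610 upstream TSSs (43.3%, interval 41.7% to 44.9%) and 300 downstream TSSs (8.07%, 7.21% to 8.99%). Nsl1 was enriched at 1349 upstream TSSs (36.3%, 34.7% to 37.8%) and 225 downstream TSSs (6.05%, 5.31% to 6.86%). Over all 44018 annotated protein-coding TSS positions the same call was made at 37.9% for Msl1 and 33.5% for Nsl1, and at genes with 1 TSS position at 30.5% and 27.8%. At the 2585 midway points it was made at 0.696% for Msl1 and 0.309% for Nsl1. Upstream TSSs were therefore enriched more often than TSSs in general when CG content was left aside, and downstream TSSs much less often, but more often than the points midway.

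**Figure D1:**
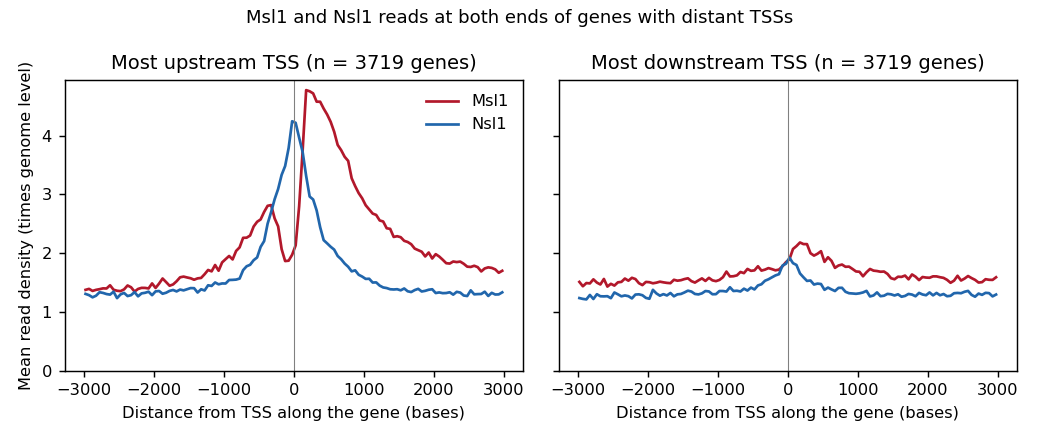
Mean read density in bins of 50 bases, in multiples of the genome level of each library, against the distance from the most upstream TSS (left) and the most downstream TSS (right) of 3719 genes, with Msl1 in red and Nsl1 in blue. At the upstream TSS Msl1 reached 4.77 between 150 and 200 bases downstream and Nsl1 4.24 just before the TSS, and at the downstream TSS the maxima were 2.18 and 1.92.

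The maxima lay at similar places at both ends, at different heights. At the upstream TSSs, Msl1 was at 2.82 times the genome level from -350 to -300 bases, dipped to 1.87 from -150 to -100 bases and was highest from 150 to 200 bases downstream, at 4.77 times the genome level and 3.44 times the density at the upstream end of the profile. It stayed above the middle of its range from 100 to 900 bases. Nsl1 was highest from -50 to 0 bases, at 4.24 times the genome level, and stayed above the middle of its range from -300 to 300 bases. At the downstream TSSs the Msl1 maximum lay at the same place, 150 to 200 bases, but was 1.46 times the upstream end. The Msl1 mean over all downstream TSSs showed no dip, with 1.72 times the genome level from -350 to -300 and from -150 to -100 bases. It stayed above the middle of its range from -50 to 650 bases. Over all downstream TSSs the Nsl1 maximum lay from 0 to 50 bases and was 1.54 times the upstream end. These means over all TSSs hold enriched and unenriched TSSs together. A lower Msl1 density before the downstream TSS was seen in the 158 genes in which Nsl1 was enriched at that TSS only. There Msl1 was at 2.79 times the genome level in the bin from -300 bases, 2.25 in that from -100 and 5.70 in that from 200.

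Reads per kb from 500 to 2000 bases downstream were divided by reads per kb within 500 bases. The ratio is higher when reads extend into the gene, but also where a peak is weak, because background reads were not subtracted. Over the upstream TSSs this ratio was 0.842 (0.835 to 0.849) for Msl1 and 0.508 (0.504 to 0.513) for Nsl1. Over the downstream TSSs it was 0.887 (0.877 to 0.897) and 0.821 (0.812 to 0.830), below the 0.985 (0.970 to 1.00) and 1.00 (0.986 to 1.01) of the midway points, with intervals that did not overlap. Among TSSs enriched in the other library, which were not chosen by the library measured, Msl1 had a ratio of 0.756 (0.746 to 0.765) at upstream and 0.676 (0.652 to 0.700) at downstream TSSs. Nsl1 had 0.413 (0.408 to 0.418) and 0.508 (0.492 to 0.524). The ratio was thus higher for Msl1 than for Nsl1 at both kinds of TSS, by intervals that did not overlap. This held over all members and over the TSSs chosen by the other library. The latter were different sets, 1349 upstream and 225 downstream TSSs for Msl1 and 1610 and 300 for Nsl1. The Msl1 fragments were also longer than the Nsl1 fragments, 212 against 133 bases.

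Most genes had 1 enriched end at most. Msl1 was enriched at the upstream TSS only in 1502 genes (40.4%), at the downstream TSS only in 192 (5.16%), at both in 108 (2.90%) and at neither in 1917. Nsl1 was enriched at the upstream TSS only in 1282 genes (34.5%), at the downstream TSS only in 158 (4.25%), at both in 67 (1.8%) and at neither in 2212. The number of genes enriched at both ends changed with the settings: with the level of the whole genome in place of the local level there were 519 for Msl1 and 214 for Nsl1, and without genes that had another gene's TSS within 2 kb there were 63 and 33 among 2741 genes.

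The same end was enriched in both libraries more often than opposite ends. Both libraries were enriched at the upstream TSS only in 836 genes, which were 55.7% of the Msl1 genes and 65.2% of the Nsl1 genes of this kind. This pattern held 40.4% of all genes in Msl1 and 34.5% in Nsl1, so that some sharing is given by its frequency alone. They shared 64 genes with the downstream TSS only (33.3% and 40.5%) and 19 genes with both TSSs (17.6% and 28.4%). In 11 genes Msl1 was enriched at the upstream TSS only and Nsl1 at the downstream TSS only, and in 15 genes the reverse. In 1438 genes neither TSS was enriched in either library.

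**Figure D2:**
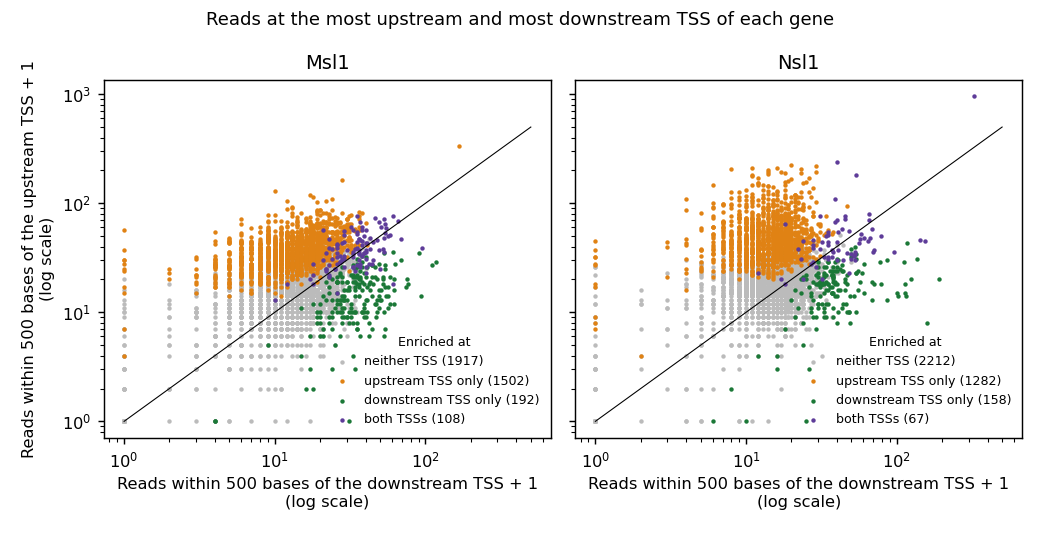
Reads within 500 bases of the most upstream TSS against those within 500 bases of the most downstream TSS, 1 added to each, on log scales, for 3719 genes in the Msl1 (left) and Nsl1 (right) library, with the black line where both are equal. Colours give the TSSs enriched: the upstream TSS only (orange) in 1502 and 1282 genes, the downstream TSS only (green) in 192 and 158, both (purple) in 108 and 67. The point far to the upper right is Sfi1.

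The gene with the most reads, Sfi1 on chromosome 11, stood apart from the others and was named after its values were seen. It had 334 Msl1 and 962 Nsl1 reads at the upstream TSS and 165 and 322 at the downstream TSS. Its local level was 96.2 Msl1 and 165 Nsl1 reads per kb at the upstream TSS, against a genome level of 7.67 and 9.80, so that reads were dense over the whole region. Sfi1 codes for a centrosomal protein.

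Within a gene, both libraries usually had more reads at the same TSS. In genes with at least 20 reads at both TSSs together, the median share of reads at the upstream TSS was 65.1% for Msl1 (3159 genes, quartiles 52% and 75%) and 62.5% for Nsl1 (3444 genes, quartiles 50% and 75%). The interval of this share lay above 50% in 1466 genes for Msl1 and 1405 for Nsl1, and below 50% in 195 and 164. Of 2981 genes with unequal counts in both libraries, 2383 (79.9%, 78.5% to 81.4%) had more reads at the same TSS, 2035 of them upstream and 348 downstream. More reads lay upstream in 76.8% of the 3159 genes for Msl1 and in 73.9% of the 3444 genes for Nsl1. Libraries that each favour the upstream TSS match in most genes without any link within a gene, so that 79.9% is not to be read against 50%. The log2 ratio of upstream to downstream reads had a Pearson r of 0.51 and a Spearman rho of 0.47 between the libraries over 3111 genes, which share base composition and genome position, so that this is a description.

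Intervals of the upstream share that did not overlap between the libraries were found in 249 of 3111 genes (8.0%, 7.07% to 9.01%). The share was higher in Msl1 in 88 of them and in Nsl1 in 161. In 17 genes (0.546%) the intervals lay on opposite sides of 50%, against 2.68% of the pairs 1 to 5 kb apart described next. Among 1119 pairs of TSSs of 1 gene that lay 1 to 5 kb apart, intervals that did not overlap were found in 13.7%. In genes with TSSs at that distance, Msl1 was enriched at 21.1% and Nsl1 at 7.94% of downstream TSSs. Msl1 reads that extend from the upstream TSS can reach the downstream window there, so that these pairs are not a like background for distant TSSs. With the downstream TSS limited to transcripts of the consensus coding set, 56 of 676 genes (8.28%, 6.32% to 10.6%) had such a difference.

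Genes with distant TSSs were then set beside genes with closer TSSs. With TSSs under 1 kb apart, Msl1 was enriched at 47.6% of the most upstream and 52.9% of the most downstream TSSs of 4908 genes, and Nsl1 at 49.1% and 46.7%, with windows that overlapped. At 1 to 5 kb, Msl1 was enriched at 34.5% and 21.1% (18.9% to 23.3%) of 1372 genes and Nsl1 at 33.1% and 7.94% (6.57% to 9.50%). The downstream values at 5 kb or more, 8.07% for Msl1 and 6.05% for Nsl1, were lower than at 1 to 5 kb, for Msl1 by intervals far apart and for Nsl1 by intervals that overlapped.

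The share of enriched upstream TSSs changed with the distance between both ends, and differently in each library. Msl1 was enriched at 32.5% (29.2% to 36.0%) of upstream TSSs in genes with ends 5 to 10 kb apart, at 40.3% from 10 to 20 kb, 43.4% from 20 to 50 kb, 48.8% from 50 to 100 kb and 54.7% (50.8% to 58.6%) above 100 kb. Nsl1 was enriched at 37.9% (34.4% to 41.4%) from 5 to 10 kb, 39.1%, 41.6% and 35.1% in the next classes and 24.0% (20.7% to 27.4%) above 100 kb. The local level itself fell over these classes, from a median of 11.8 to 8.30 reads per kb for Msl1 and from 13.4 to 10.96 for Nsl1. With the level of the whole genome in its place, an alternative chosen after the data were seen, Msl1 was enriched at 51.6% (48.0% to 55.2%) from 5 to 10 kb, 59.7% (55.5% to 63.9%) from 50 to 100 kb and 56.1% (52.2% to 60%) above 100 kb, and Nsl1 at 50.8% from 5 to 10 kb and 29.5% (26% to 33.2%) above 100 kb. The lower share of Nsl1 above 100 kb was therefore seen with both levels, and a rise of Msl1 through all classes with the local level only. The share of upstream TSSs with a high CG content went from 44.5% in the first class to 65.1% from 50 to 100 kb and 61.1% above 100 kb, and its part in these shares was not tested.

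**Figure D3:**
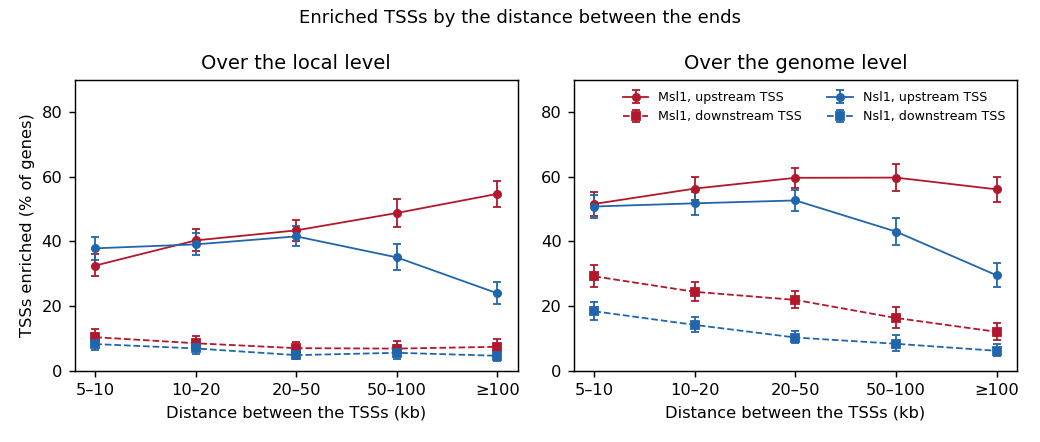
Percent of genes with an enriched upstream TSS (circles, solid lines) or downstream TSS (squares, dashed lines) against the distance between both TSSs in kb, for Msl1 (red) and Nsl1 (blue), with exact 95% binomial intervals, over the local level (left) and the genome level (right). Nsl1 at upstream TSSs falls to 24.0% and 29.5% in the genes with ends over 100 kb apart, while Msl1 is at 54.7% and 56.1%.

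The downstream TSSs that were enriched were mostly of some kinds. In introns, 12.3% (10.9% to 13.8%) were enriched in Msl1 and 9.13% (7.91% to 10.5%) in Nsl1, against 3.16% (2.39% to 4.11%) and 2.46% (1.78% to 3.31%) in exons. Where the transcript start was marked incomplete, 2.54% and 1.69% were enriched, against 10.6% and 8.07% where it was not. Of 843 downstream TSSs of a consensus coding transcript, 16.5% (14.0% to 19.2%) were enriched in Msl1 and 12.5% (10.3% to 14.9%) in Nsl1. All of these shares were below the 37.9% and 33.5% of all TSS positions. Of 3419 TSS positions more than 1 kb from both ends, in 1486 genes, 19.4% were enriched in Msl1 and 11.3% in Nsl1, also below the shares of all positions. Among genes enriched at neither end that had such a TSS, it was enriched in 185 of 782 genes (23.7%) for Msl1 and 136 of 975 (13.9%) for Nsl1.

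The ends differed in CG content. The observed over expected number of CG dinucleotides within 500 bases had a median of 0.663 at upstream TSSs, 0.25 at downstream TSSs and 0.549 at all TSSs, and it was at least 0.6, called CpG-rich here, at 57.0%, 7.48% and 45.7% of them. Among CpG-rich TSSs, Msl1 was enriched at 64.6% (62.5% to 66.6%) of upstream and 62.6% (56.6% to 68.3%) of downstream TSSs. Nsl1 was enriched at 52.1% (50% to 54.3%) and 38.5% (32.7% to 44.5%). Among CpG-poor TSSs, Msl1 was enriched at 15.1% of upstream and 3.66% of downstream TSSs and Nsl1 at 15.3% and 3.43%. Of all annotated TSS positions, 69.5% of the CpG-rich ones were enriched in Msl1 and 59.8% in Nsl1, against 11.2% and 11.4% of the CpG-poor ones. CpG-rich upstream TSSs were thus enriched less often than CpG-rich TSSs in general, and CpG-poor upstream TSSs more often than CpG-poor TSSs in general. At equal CpG class, Msl1 enrichment of CpG-rich TSSs had overlapping intervals at both ends, while that of Nsl1 was lower downstream.

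A CpG-rich upstream and CpG-poor downstream TSS was the most common pair, in 2007 genes (54.0%), and both were poor in 1434 (38.6%). In the 166 genes (4.46%) with a poor upstream and a rich downstream TSS, Msl1 was enriched at the downstream TSS only in 95 genes and Nsl1 in 60, and at the upstream TSS only in 6 and 7. In the 112 genes (3.01%) with 2 rich TSSs, Msl1 was enriched at both in 42 genes and Nsl1 in 21. GC percent also differed, with a median of 57.9% at upstream and 47.5% at downstream TSSs, and its part in these counts was not tested.

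Short motifs were searched on both strands from 250 bases before to 50 bases after each TSS. TATAAA, the core of the TATA box, was found at 7.91% of upstream, 15.2% of downstream and 11.4% of all TSSs. GGGCGG, the core of the Sp1 site, was found at 54.1%, 14.1% and 44.5%, and CCAAT at 36.3%, 32.8% and 35.3%. CCGGAAG, an Ets site, was found at 11.1% of upstream, 3.39% of downstream and 11% of all TSSs, at 23.7% of the upstream TSSs enriched in Nsl1 and at 15.8% of those enriched in Msl1. At enriched downstream TSSs it was found at 19.1% for Nsl1 and 11.3% for Msl1. An Nrf1 site was found at 7.23%, 1.10% and 6.08%, at 14.9% of upstream TSSs enriched in Nsl1 and 10.2% of those enriched in Msl1. ATGGCGGC, a Yy1 site, was found at 2.96%, 0.618% and 3.07%. The Sp1, Ets, Nrf1 and Yy1 motifs hold CG dinucleotides themselves, and a match does not show binding. TATAAA holds no G or C, and the ends differed in GC percent. The part of base composition in all these motif shares was not tested.

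To see whether Msl1 and Nsl1 lay at the downstream TSS together, profiles of each library were drawn for genes chosen by the other. In the 158 genes in which Nsl1 was enriched at the downstream TSS only, Msl1 reached 5.70 times the genome level between 200 and 250 bases after the downstream TSS and 2.86 at the upstream TSS. In the 192 genes in which Msl1 was enriched at the downstream TSS only, Nsl1 reached 4.71 times the genome level at the downstream and 2.95 at the upstream TSS. In the genes with the upstream TSS only, Msl1 reached 6.90 upstream and 2.02 downstream (1282 genes) and Nsl1 6.03 and 1.68 (1502 genes). The mean profile of the library that made no choice was thus highest at the chosen end in each of these sets.

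**Figure D4:**
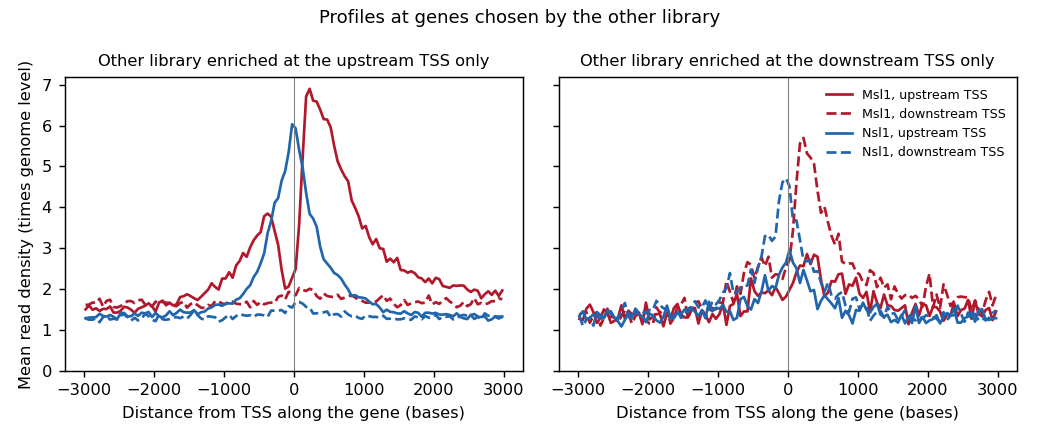
Mean read density in multiples of the genome level against the distance from the TSS, in bins of 50 bases, at the most upstream (solid) and most downstream TSS (dashed), for Msl1 (red) in genes chosen by Nsl1 and for Nsl1 (blue) in genes chosen by Msl1. Left, the other library was enriched at the upstream TSS only (1282 and 1502 genes), right, at the downstream TSS only (158 and 192 genes), where Msl1 reached 5.70 and Nsl1 4.71 at the downstream TSS.

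Among genes with no other gene's TSS within 2 kb, those with the largest upstream excess of Msl1 were Fut8, Hunk, Slc22a15, Igf1r and Itgb1. Fut8, which adds core fucose to N-glycans, had 56 Msl1 reads at the upstream TSS and 0 at the downstream TSS, 171341 bases away on chromosome 12. Its Nsl1 reads were 21 and 0, and the intervals of both counts of 0 reached 0.497 (Msl1) and 0.482 (Nsl1) times the local level. Mappability was not computed, and a window to which reads cannot be aligned would also hold 0 reads. Igf1r, the receptor of insulin-like growth factor, had 47 and 4 Msl1 reads and 11 and 13 Nsl1 reads, so that only Msl1 was one-sided there. Itgb1, the common beta chain of many integrins, had 44 and 4 Msl1 reads and 27 and 14 Nsl1 reads, and its downstream start was marked incomplete. Hunk, a protein kinase, had 71 and 5 Msl1 reads and 12 and 16 Nsl1 reads. Slc22a15, a membrane transporter, had 44 and 3 Msl1 reads and 26 and 17 Nsl1 reads. In these 5 genes the upstream TSS was CpG-rich and the downstream TSS was not.

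The Msl1 excess was downstream in Rbbp6, Tollip, Rbbp8, Notch1 and Dpy30. Rbbp6, a ubiquitin ligase that binds Rb and p53, had 5 Msl1 reads at the upstream and 52 at the downstream TSS, which was 4.55 (3.4 to 5.97) times the local level, and 12 and 17 Nsl1 reads. Notch1, the signalling receptor, had 6 and 43 Msl1 reads and 20 and 19 Nsl1 reads, with Nsl1 enriched at neither TSS. Tollip, an adaptor of Toll-like receptor signalling, had 6 and 53 Msl1 reads and 12 and 68 Nsl1 reads. Dpy30, a subunit of histone H3 methyltransferase complexes, had 5 and 36 Msl1 reads and 9 and 53 Nsl1 reads. Rbbp8, which acts in resection of DNA breaks, had 5 and 41 Msl1 reads and 22 and 47 Nsl1 reads. The downstream TSS was CpG-rich in these 5 genes and lay in an intron.

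The largest upstream excess of Nsl1 was in Plaa, Opa1, Ppig, Mtif2 and Elac2. Plaa, a ubiquitin-binding protein, whose TSSs lay 19746 bases apart, had 108 Nsl1 reads at the upstream TSS, 11.2 (9.17 to 13.5) times the local level, and 3 at the downstream TSS, and 28 and 15 Msl1 reads. Opa1, a GTPase of mitochondrial inner membrane fusion, had 204 and 7 Nsl1 reads and 37 and 7 Msl1 reads. Mtif2, the mitochondrial translation initiation factor, had 209 and 10 Nsl1 reads and 41 and 12 Msl1 reads. Ppig, a nuclear cyclophilin, had 147 and 5 Nsl1 reads and 60 and 13 Msl1 reads. Elac2, the nuclease that trims the ends of tRNA precursors, had 181 and 10 Nsl1 reads and 45 and 18 Msl1 reads. Both libraries were enriched at the upstream TSS only in all 5 genes, and the downstream TSS was marked as an incomplete start in Plaa, Opa1 and Mtif2. The interval of the Msl1 upstream share in Plaa, 49.1% to 79.0%, includes equal shares.

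The Nsl1 excess was downstream in Atp2b4, Gpam, Psma6, Zcchc4 and Wdr61. Atp2b4, a calcium pump of the plasma membrane, had 19 Nsl1 reads at the upstream and 189 at the downstream TSS, 12.5 (10.8 to 14.4) times the local level. Msl1 had 24 and 18 reads in Atp2b4 and was enriched at the upstream TSS only. The interval of its upstream share, 41.0% to 72.3%, includes equal shares. Gpam, which starts glycerolipid synthesis in mitochondria, had 13 and 115 Nsl1 reads and 10 and 55 Msl1 reads. Psma6, a subunit of the proteasome core, had 14 and 112 Nsl1 reads and 20 and 45 Msl1 reads. Wdr61, a member of the Paf1 and Ski complexes, had 14 and 99 Nsl1 reads and 18 and 33 Msl1 reads. Zcchc4, an RNA methyltransferase, had 13 and 101 Nsl1 reads and 9 and 27 Msl1 reads. In Gpam, Psma6 and Wdr61 Msl1 was also enriched at the downstream TSS only. The annotation's upstream TSS was CpG-poor in all 5 genes, and the downstream TSS was CpG-rich in Gpam, Psma6 and Zcchc4.

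The genes with the highest enrichment at both TSSs were 2410141K09Rik, Gm14401, Prkg1, Rnf44 and Trim6 for Msl1 and 2410141K09Rik, 4933421E11Rik, Gm14401, Sucla2 and Rpl24 for Nsl1. In 2410141K09Rik this rested on 12 and 9 Msl1 reads and 19 and 16 Nsl1 reads over a local level between 1.28 and 2.02 reads per kb, and in Gm14401 on 17 and 11 Msl1 reads and 22 and 11 Nsl1 reads over a local level between 1.54 and 2.11. Both were far below the genome level, so that few reads made the call. Rnf44, a RING finger protein, had 76 and 60 Msl1 reads and 66 and 38 Nsl1 reads and was enriched at both TSSs in both libraries. Prkg1, the kinase activated by cyclic GMP, had 27 and 41 Msl1 reads and 19 and 23 Nsl1 reads. Trim6, a ubiquitin ligase, had 24 and 21 Msl1 reads and 12 and 19 Nsl1 reads. Rpl24, a protein of the large ribosomal subunit, had 43 and 39 Nsl1 reads but 19 and 74 Msl1 reads. The gene 4933421E11Rik had 35 and 95 Nsl1 reads and 14 and 25 Msl1 reads.

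Among genes with at least 40 reads in each library and no other gene's TSS within 2 kb, the odds of a read lying at the upstream TSS were most different between the libraries in Atp2b4, Shank3, Slc22a15, Crhr1 and Smad3, where they were higher in Msl1, and in Plaa, Sucla2, Zfp35, 2010111I01Rik and Nup214, where they were higher in Nsl1. Shank3, a scaffold of excitatory synapses, had 30 and 15 Msl1 reads but 7 and 48 Nsl1 reads. Smad3, which carries TGF-beta signals to the nucleus, had 68 and 10 Msl1 reads and 25 and 20 Nsl1 reads. Crhr1, the receptor of corticotropin-releasing hormone, had 53 and 10 Msl1 reads and 19 and 21 Nsl1 reads. Sucla2, a subunit of the mitochondrial succinate-CoA ligase, had 9 and 33 Msl1 reads but 181 and 53 Nsl1 reads. Nup214, a nuclear pore protein, had 35 and 19 Msl1 reads and 209 and 15 Nsl1 reads. Zfp35, a zinc finger protein, had 29 and 20 Msl1 reads and 97 and 6 Nsl1 reads, and 2010111I01Rik had 23 and 30 Msl1 reads and 86 and 13 Nsl1 reads. The downstream start was marked incomplete in Plaa, 2010111I01Rik and Nup214. The log2 odds ratio, positive when higher in Msl1, was 3.64 in Atp2b4 and 3.57 in Shank3, and -3.91 in Plaa and -3.52 in Sucla2.

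Of 31 genes with well known alternative promoters, 27 were members. The ends scored were the outermost annotated TSSs, which need not be the well known promoters of a gene. The downstream start was marked incomplete in Dnmt3a, Srebf1 and Kdm2b. Msl1 was enriched at both TSSs in 3 of them, at the upstream TSS only in 4, at the downstream TSS only in 4 and at neither in 16, and Nsl1 in 1, 5, 0 and 21. Over all members both TSSs, the upstream TSS only and the downstream TSS only made up 2.90%, 40.4% and 5.16% for Msl1 and 1.8%, 34.5% and 4.25% for Nsl1. The median Msl1 ratio to the local level was 1.69 at the upstream and 1.81 at the downstream TSS, against 2.08 and 1.15 over all members, and the Nsl1 medians were 1.15 and 1.11, against 1.81 and 1.09. Cdkn2a, whose distant promoters give the tumour suppressors Arf and Ink4a, was the member enriched at both TSSs in both libraries. It had 56 Msl1 reads upstream, 8.55 (6.46 to 11.1) times the local level, and 20 downstream, and 30 and 22 Nsl1 reads.

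Msl1 was enriched at both TSSs in Nrg1, a growth factor of the neuregulin family, and Grb10, an imprinted adaptor of insulin signalling. It had 38 and 25 reads in Nrg1 and 31 and 32 in Grb10, where the lower ends were 1.60 and 1.52. Nsl1 passed at neither TSS in either gene, but in Nrg1 it had 23 and 18 reads with lower ends of 1.44 and 1.15. The Msl1 calls in Grb10 and the Nsl1 value at the upstream TSS of Nrg1 thus lay close to the threshold of 1.5. Mitf, the melanocyte transcription factor, had 36 and 6 Msl1 reads and 32 and 12 Nsl1 reads. Adar, the RNA-editing adenosine deaminase, had 33 and 26 Msl1 reads and 127 and 25 Nsl1 reads. Srebf1, a regulator of lipid synthesis, had 45 and 31 Msl1 reads and 44 and 15 Nsl1 reads. Both libraries were enriched at the upstream TSS only in Mitf, Adar and Srebf1. The interval of the Msl1 upstream share was 42.4% to 68.8% in Adar and 47.3% to 70.4% in Srebf1. Both intervals include equal shares, so no Msl1 difference between the ends of these genes was shown. In Cux1, a homeodomain factor, Msl1 alone was enriched there, with 44 and 7 reads. In Acaca, acetyl-CoA carboxylase, Nsl1 alone was enriched upstream, with 65 and 12 reads. Another gene's TSS lay within 2 kb of an end of Nrg1, Acaca, Gnas, Pax6, Igf2 and Nrxn2 in this list.

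Of both ends, Msl1 was enriched at the downstream TSS only in Bdnf, Otx2, Lmo2 and Tcf4. Otx2, a transcription factor of the early embryo and the anterior nervous system, had 18 and 27 Msl1 reads and 11 and 12 Nsl1 reads. Lmo2, a blood-forming factor, had 18 and 25 Msl1 reads, and Bdnf, a neurotrophin, 18 and 25. The interval of the Msl1 upstream share was 25.7% to 55.7% in Otx2 and 27.0% to 57.9% in Lmo2 and Bdnf. These intervals include equal shares, so no difference between both ends was shown. The lower end at the upstream TSS of Bdnf was 1.40. Between both ends, Msl1 was enriched at 2394 bases in Bdnf (31 reads, 2.68 to 5.60 times the local level). It was also enriched at 2123 bases in Otx2 (1.67 to 3.82) and 11542 bases in Lmo2 (2.09 to 4.55). In Tcf4, a basic helix-loop-helix factor, Msl1 had 9 and 23 reads and Nsl1 44 and 11, so that each library was enriched at another end.

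In other genes of the list a TSS between both ends was also enriched. In Igf2, the imprinted growth factor, neither end was enriched, but the TSS 8012 bases into the gene had 37 Msl1 reads, 4.20 (2.96 to 5.79) times the local level, and 9 Nsl1 reads. In Kdm2b, a histone demethylase with a CpG-binding domain, the TSS 24338 bases into the gene had 47 Msl1 reads, 3.33 (2.44 to 4.42) times, and 13 Nsl1 reads. In Gnas, an imprinted locus that codes for a G protein subunit, the TSS 43448 bases into the gene had 38 Nsl1 reads, 2.92 (2.06 to 4.0) times, and that at 13539 bases had 40 Msl1 reads, 2.56 (1.83 to 3.49) times. In Pax6, the eye and neural transcription factor, the TSS at 7232 bases had 39 Msl1 reads, 3.50 (2.49 to 4.79) times. In Acaca the TSS at 50201 bases had 49 Msl1 reads, 4.27 (3.16 to 5.65) times, and in Nrxn3 that at 1017975 bases had 25, 3.77 (2.44 to 5.56) times. In Nrxn2 the TSS at 9915 bases had 58 Msl1 reads, 3.80 (2.89 to 4.92) times. That at 10036 bases had 38 Nsl1 reads, 2.29 (1.62 to 3.14) times, and both starts were marked incomplete. These TSSs, and those between both ends of Bdnf, Otx2 and Lmo2, were named after their values were seen. In Dnmt3a, the de novo DNA methyltransferase, none of the 13 TSS positions passed in either library.

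The remaining members of this list passed at neither end in either library. They were Dnmt3a, Gnas, Runx1, Trp63, Trp73, Pax6, Hnf4a, Pparg, Esr1, Nr5a2, Igf2, Nrxn2, Nrxn3, Kdm2b and Ppargc1a. Ratios among these genes ran from 0.159 at the upstream TSS of Ppargc1a in Msl1 to 2.26 at the downstream TSS of Runx1 in Msl1.

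**Figure D5:**
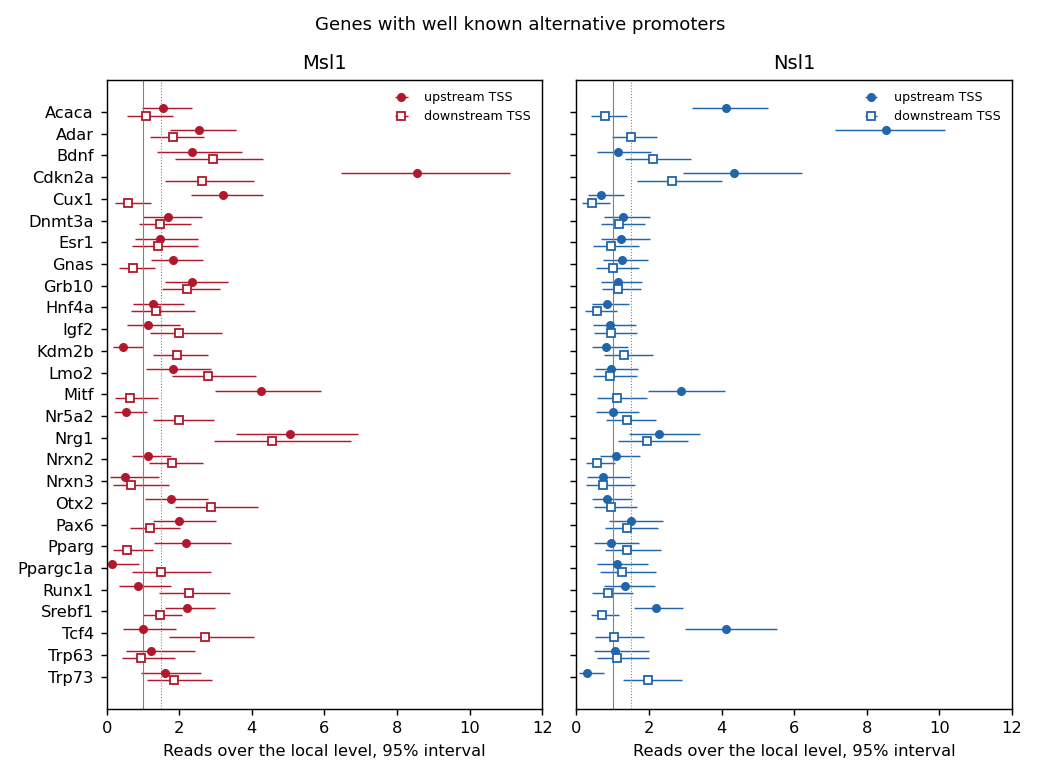
Reads within 500 bases of the TSS over the local level, with exact 95% Poisson intervals, at the upstream (filled circles) and downstream TSS (open squares) of 27 genes with well known alternative promoters, in the Msl1 (left) and Nsl1 (right) library; the solid line is at 1 and the dotted line at 1.5, which the lower end must reach. The highest values are Cdkn2a for Msl1 (8.55) and Adar for Nsl1 (8.53), both at the upstream TSS.

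Chromatin regulators, 32 of 60 annotated, had Msl1 at the upstream TSS only in 12 genes, at the downstream TSS only in 3 and at both in 1, and Nsl1 in 8, 0 and 0. The shares of all members in this order were 40.4%, 5.16% and 2.90% in Msl1 and 34.5%, 4.25% and 1.8% in Nsl1. Their median Msl1 ratio was 2.05 upstream and 1.22 downstream, near the 2.08 and 1.15 of all members, while the Nsl1 medians were 1.36 and 1.06, against 1.81 and 1.09. Ncoa2, a coactivator of nuclear receptors, had 54 and 12 Msl1 reads and 15 and 13 Nsl1 reads. Arid1a, a subunit of the BAF remodelling complex, had 55 and 17 Msl1 reads and 40 and 6 Nsl1 reads. Brd2, a reader of acetylated histones, had 47 and 52 Msl1 reads and 37 and 13 Nsl1 reads and was the list's member with Msl1 at both TSSs. Ezh2, the histone methyltransferase of Polycomb, had 22 and 26 Msl1 reads and 35 and 8 Nsl1 reads, with Nsl1 enriched upstream.

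Pluripotency and developmental transcription factors, 24 of 38 annotated, had Msl1 at both TSSs in 3 genes, at the upstream TSS only in 6 and at the downstream TSS only in 6, and Nsl1 in 0, 3 and 1. Neither TSS was enriched in 9 of these genes for Msl1 and in 20 for Nsl1. Over all members both TSSs, the upstream TSS only and the downstream TSS only made up 2.90%, 40.4% and 5.16% for Msl1. For Nsl1 they made up 1.8%, 34.5% and 4.25%. The median Msl1 ratio was 1.62 upstream and 2.02 downstream, against 2.08 and 1.15 over all members. The Nsl1 medians were 1.35 and 1.04, against 1.81 and 1.09. Otx2, Tcf4, Pax6, Runx1 and Nr5a2 are also in the list of well known alternative promoters, so that the values of both lists are not independent. Otx2 and Tcf4 have Msl1 at the downstream TSS only in both counts. The genes of this list named next were picked by no set rule. Tbx3, a factor of the naive state, had 46 and 68 Msl1 reads and 25 and 33 Nsl1 reads, and Sall4, a zinc finger factor of the pluripotency network, had 34 and 38 Msl1 reads and 33 and 18 Nsl1 reads. Esrrb, a nuclear receptor of the same network, had 11 and 45 Msl1 reads and 21 and 21 Nsl1 reads, and Foxp1, a forkhead factor, had 13 and 55 Msl1 reads and 20 and 15 Nsl1 reads. Tcf3, a transcription factor of the E protein family, had 55 and 14 Msl1 reads and 42 and 15 Nsl1 reads. Zeb2, a repressor of epithelial genes, had 24 and 24 Msl1 reads and 11 and 12 Nsl1 reads. Another gene's TSS lay within 2 kb in Tbx3, Sall4 and Zeb2.

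Cytoskeletal, scaffold and signalling genes with long and short isoforms, 21 of 22 annotated, had Msl1 at both TSSs in 1 gene, at the upstream TSS only in 5 and at the downstream TSS only in 3, and Nsl1 in 0, 2 and 2, to be read against the same shares of all members. The median Msl1 ratio was 2.06 upstream and 1.61 downstream, against 2.08 and 1.15 over all members, and the Nsl1 medians were 1.39 and 1.17, against 1.81 and 1.09. Tpm1, a tropomyosin, had 35 and 39 Msl1 reads and 26 and 42 Nsl1 reads, and Tpm3 had 9 and 47 Msl1 reads and 13 and 24 Nsl1 reads. Magi1, a junction scaffold, had 66 and 26 Msl1 reads and 18 and 19 Nsl1 reads. Ank2, an ankyrin, had 10 and 14 Msl1 reads and 34 and 10 Nsl1 reads. In Fgfr2, a fibroblast growth factor receptor, 57 Msl1 reads lay at an upstream TSS 2909662 bases from the downstream one and within 2 kb of another gene's TSS, and those reads cannot be told apart from that gene's.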

How the data were processed

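ChIP-seq reads of Msl1 and Nsl1 from wt mESCs, 1 library each, were used. According to the submitters' processing notes, CASAVA 1.8.2 and Bowtie 0.12.7 were used with the mm9 genome, and the study states that unique reads were kept. The authors deposited the position and strand of each alignment beside a score, which is 255 on every line and was not used as a measurement. The Input to which the study normalized was not used here, and no peaks were called. A read excess that any library might have at promoters was therefore not removed.

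Here 1 read was kept per position and strand, which left 81.7% of nuclear Msl1 and 95.4% of nuclear Nsl1 reads. The fragment length came from the strand cross-correlation on chromosomes 16, 18 and 19. Genes and TSSs came from GENCODE M1 on mm9, another release than the study's. Mappability was not computed. The count and the call were tested on simulated reads spread evenly at the genome level of each library, with no other site in the flanks. Of 200 sites planted at 3 times that level, 81% were called for Msl1 and 84% for Nsl1, and 0% of 200 unplanted sites. Real reads are less even, so that these shares check the code and are not error rates of the data. The midway points were called at 0.696% for Msl1 and 0.309% for Nsl1. Python 3.11.15, numpy 2.4.6, pandas 2.3.3, scipy 1.17.1, pysam 0.24.0, samtools 1.23.1 and matplotlib 3.10.9 were used.

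The rule for the members used the annotation and no read count, but this rule and all 4 gene lists were chosen with earlier results of these data known. Genes named for their values had no other gene's TSS within 2 kb: in each library the 5 with the largest and smallest ratio of upstream to downstream reads (1 read added, at least 40 reads, the higher TSS enriched), the 5 enriched at both TSSs with the largest lower ratio, and the 5 per direction whose odds differed most between the libraries (at least 40 reads in each), beside the list of well known alternative promoters and the ends of the distance range. Members of the other lists are examples that were picked by no set rule, and their read counts do not stand for their lists. A few genes are not reported here, and the list of well known alternative promoters and its counts leave them out. The alternatives were all reads kept, other thresholds, levels, windows, distances and subsets of genes; those with consensus coding transcripts, with equal depth and with the genome level by distance were chosen after seeing the data.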

Additional observations from a re-analysis of the deposited data

Results flagged for a closer look

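In 17 of 3111 genes (0.546%) the interval of the upstream share lay above 50% in one library and below 50% in the other, against 2.68% of 1119 pairs of TSSs 1 to 5 kb apart. Those pairs are not a like background, as described above. With 1 library per antibody the differences between the libraries were not tested. They are given as log2 odds ratios of upstream against downstream reads, positive when higher in Msl1.

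Msl1 reads lay upstream and Nsl1 reads downstream in 7 genes, of which 5 are described. The log2 odds ratio was 3.57 in Shank3, 2.34 in Fndc3a, 2.32 in Exosc3, a subunit of the RNA exosome, 1.74 in Slc39a11, a zinc transporter, and 1.62 in Rab37, a GTPase of secretion. Fndc3a had 39 and 13 Msl1 reads and 29 and 52 Nsl1 reads.

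Nsl1 reads lay upstream and Msl1 reads downstream in 10 genes. The log2 odds ratio was -4 in Khsrp, an RNA-binding protein, -3.52 in Sucla2, -3.19 in Usp7, a deubiquitinase, -3.17 in Tcf4, -2.78 in Mgat1, an enzyme of N-glycan synthesis, -2.46 in Stag3, a meiotic cohesin subunit, -2.36 in 1700081L11Rik, -2.22 in Slc2a3, a glucose transporter, -2.15 in Rhbdl2, a rhomboid protease, and -1.51 in Arl5b, a small GTPase. The gene 1700081L11Rik is Kansl1, which codes for Nsl1 itself. It had 34 and 89 Msl1 reads and 27 and 13 Nsl1 reads. Nsl1 was enriched at neither TSS of this gene, with 1.62 (1.07 to 2.36) times the local level at the upstream TSS. Slc2a3 had 38 and 94 Msl1 reads and 41 and 21 Nsl1 reads. Khsrp had 5 and 20 Msl1 reads and 31 and 6 Nsl1 reads, and no TSS of it was enriched in either library. Nsl1 was also enriched at neither TSS of Rab37, and Msl1 at neither TSS of Shank3. Both TSSs were enriched in Nsl1 in Sucla2, Arl5b, Mgat1 and Fndc3a, and in Msl1 in Slc2a3 and Exosc3. From 500 to 2000 bases downstream Khsrp had 88 Msl1 reads at the upstream and 28 at the downstream TSS, the reverse of the order within 500 bases. Over that second window the counts alone, with no interval, kept the order of both libraries in 1700081L11Rik, Rhbdl2, Sucla2 and Fndc3a of the genes named here, and not in the others; the Msl1 counts of Rhbdl2 were 15 and 16. Another gene's TSS lay within 2 kb in Exosc3, Slc39a11, Arl5b, Stag3 and Usp7. The downstream start was marked incomplete in Stag3 and Fndc3a, and the upstream start in Exosc3.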

How the results depend on the processing

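No paired analysis was possible because each antibody had 1 library and no test was made. Of 81 values under alternatives, 39 stayed within 1.5 times (counts) or within the counting interval (other values) and 42 did not. The order upstream only, downstream only, both TSSs held for both libraries under the stricter and the smaller sets of genes below. In the order both TSSs, upstream only and downstream only, Msl1 gave 60, 979 and 93 and Nsl1 34, 714 and 73 of 2158 genes with TSSs at least 20 kb apart, and Msl1 gave 41, 238 and 98 and Nsl1 32, 184 and 73 of 843 genes whose downstream TSS belonged to a consensus coding transcript, where the same TSS had more reads in 76.1% and 56 genes differed. These sets have fewer genes by construction. With the lower end at 2 or more, both TSSs passed in 23 (Msl1) and 27 (Nsl1) genes and the downstream TSS only in 125 and 86, and at the lower threshold both passed in 213 and 128. With the genome level both passed in 519 and 214, which for Msl1 was more than the downstream TSS only (277), the reverse of the order with the local level. Without incomplete starts Nsl1 was at the upstream TSS only in 849 of 2862 genes. Without another gene's TSS within 2 kb (2741 genes), both passed in 63 and 33, Nsl1 was upstream only in 831, 159 genes differed, the same TSS led in 78.2%, and the downstream ratio was 0.888 (Msl1 upstream), 0.555 (Nsl1 upstream) and 0.839 (Nsl1 downstream). That ratio, for Msl1 upstream and downstream and Nsl1 upstream and downstream, was 0.715, 0.857, 0.463 and 0.807 from 1000 to 2000 bases and 0.692, 0.636, 0.312 and 0.356 at TSSs enriched in the same library, where for Msl1 the upstream value was the higher, and for Nsl1 upstream 0.497 with all reads kept. The same TSS led in 82.2% within 1000 bases and 67.9% from 500 to 2000 bases downstream. With Nsl1 thinned to the Msl1 depth its counts were 61, 1208 and 150. The causes were not tested. The median downstream TSS held 13 and 14 reads, and how much of an enrichment under 3 times would be called at this depth was not tested.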
